A study of Mus musculus with 57 samples.

Results

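The genes of the mitochondrial respiratory chain were followed across 57 Affymetrix mouse expression arrays of blood-forming tissue from 2 leukemia models. The members were the genes whose symbols on the array match those of the nuclear-encoded subunits of complex I (Nduf), complex II (Sdh), complex III (Uqcr), complex IV (Cox) and the ATP synthase, complex V (Atp5). They numbered 81 of the 18165 genes measured: 35 of complex I, 4 of complex II, 8 of complex III, 17 of complex IV and 17 of complex V. Of these, 79 passed the filter on low signal and were tested; Ndufb4 and Cox7b2 were not. A further 7 genes of the rule lay only on probe sets shared with another gene and were left out. Each gene was read from its brightest single-gene probe set, and 48 members had more than 1. Signals are log2 values, so a difference of 1 is a doubling; signals of different probe sets were not compared with each other.

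CA10 mice carry a CALM-AF10 fusion and NHD13 mice a NUP98-HOXD13 fusion, each driven in blood cells by the vav promoter, and no group was treated. Leukemic spleens came from CA10 mice (6 arrays) and NHD13 mice (6 arrays) killed with clinical signs of leukemia. Tissues of clinically healthy transgenic mice were CA10 spleen (5), CA10 and NHD13 lineage-negative marrow (3 each), CA10 and NHD13 whole marrow (3 each), CA10 thymus (4) and NHD13 thymus (3). Wild-type mice, age-matched littermates where possible, gave spleen (2), lineage-negative marrow (3), whole marrow (6) and thymus (7), and 3 further wild-type marrows were labelled C57B6; the labels give no strain for the other groups and no ages. Whether every array had its own mouse is not stated either, so a p-value covers only the spread between arrays, which may be technical. In bulk tissue, fewer cells of a type and less RNA per cell cannot be told apart.

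Complexes I to IV pass electrons from NADH and succinate to oxygen, complexes I, III and IV pump protons across the inner mitochondrial membrane as they do, and complex V uses the resulting gradient to make ATP. Complex II is also an enzyme of the citric acid cycle. Most subunits of complexes I, III, IV and V are nuclear-encoded, while a core set of them is made inside the mitochondrion, and several complex IV subunits have paired forms, 1 used widely and 1 used in muscle, brown fat or testis. Resting blood stem cells are known for low respiration, and acute myeloid leukemia cells often depend on it.

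The arrays fell into 2 sets by the spread of their signals. The 75th percentile was 6.90 to 7.15 on 10 arrays and 7.26 to 7.72 on the other 47. Narrow signals were found on all 3 CA10 whole marrows, on wild-type whole marrows 4 to 6, on array 3 of the wild-type, CA10 and NHD13 lineage-negative marrows, and on wild-type thymus 6. All spleen arrays were of the wide set. The labels do not name these sets, and marrow comparisons that cross them are given with and without the split. The array labelled wild-type thymus 2 lacked the marker levels of a thymus: its immature thymocyte markers averaged 5.80, where the other wild-type thymuses had 9.97 to 10.77, and its T cell markers 8.83 against 11.03 to 11.99. CA10 thymus 3 was the lowest of its group, at 9.14 and 9.75. Exocrine pancreas markers were high on 1 healthy and 1 leukemic CA10 spleen, with values given beside the comparison.

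The level of the chain on an array was taken as the median, over the 81 genes, of the signal minus the mean of that gene's 14 group means. The wild-type spleens had levels of -0.29 and -0.46. The CA10 leukemic spleens lay at 0.11, 0.08, 0.23, -0.10, 0.23 and 0.07, and the NHD13 leukemic spleens at 0.27, 0.22, 0.34, 0.20, 0.19 and 0.07. Every leukemic spleen was above both wild-type spleens. The healthy CA10 spleens spread from -0.41 to 0.04, which overlapped both the wild-type and the CA10 leukemic arrays. Lineage-negative wild-type marrow had levels of 0.09, 0.30 and 0.08, whereas the 6 wild-type whole marrows lay between -0.35 and -0.11. The highest arrays were labelled thymus, wild-type thymus 2 at 1.29 and CA10 thymus 3 at 1.07, and the lowest single array was the third NHD13 lineage-negative marrow, at -0.89.

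**Figure D1:**
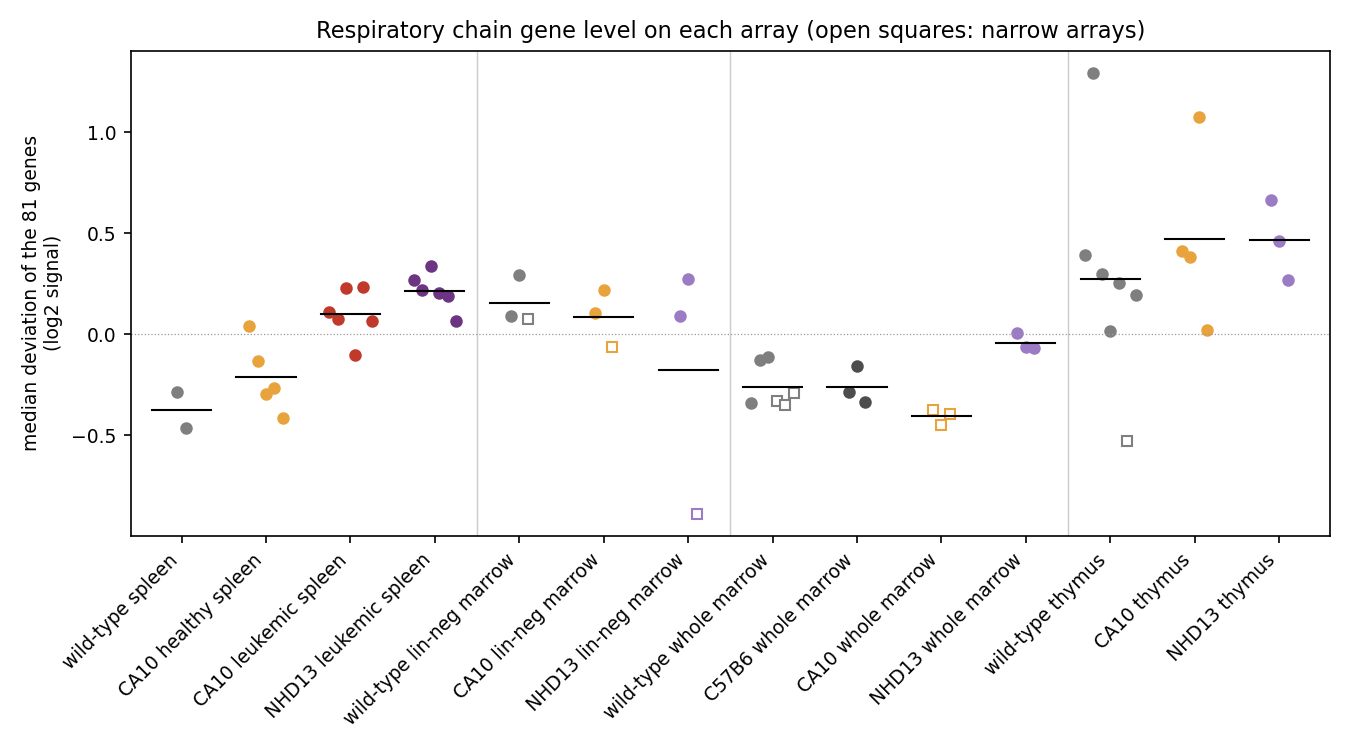
Level of the respiratory chain on each of the 57 arrays, as the median over 81 genes of the log2 signal minus the gene's mean over the 14 groups, with arrays arranged by group. Every leukemic spleen lies above both wild-type spleens (-0.29 and -0.46), while the thymus arrays spread from -0.53 to 1.29.

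Leukemic spleens were first set against wild-type spleen, the comparison that asks how leukemic tissue differs from normal tissue of the same organ. In CA10 leukemic spleen 21 of 79 members rose and 0 fell (limma, adjusted p under 0.05), where 5.67% of all genes tested rose and 2.44% fell. At an unadjusted p under 0.05 the counts were 48 and 0. The median member change was 0.49, against 0.03 over all genes, and 77 members had a positive difference. In NHD13 leukemic spleen 47 members rose and 0 fell, where 19.1% of all genes rose and 12.3% fell, with a median of 0.59 against 0.04. Every leukemic array was above both wild-type arrays for 49 members in CA10 and 58 in NHD13, where this held for 20.2% and 22.4% of all genes. Both leukemias were compared with the same 2 wild-type spleens, which limits this test. Without either one of them 0 members were called in CA10, with a median of 0.54 without the first and 0.44 without the second, and 1 and 0 genes were called in all. Without the second wild-type spleen 17 members were called in NHD13. Without CA10 leukemic spleen 3, which had high exocrine pancreas markers, 14 were called in CA10. The model of all arrays left 4 calls in CA10 and 22 in NHD13, and quantile normalization 8 and 27. The Gapdh signal was lower at the 5' than at the 3' probe set by 0.57 and 0.37 in the wild-type spleens. This gap was -0.05 to 0.22 in CA10 leukemic spleen, and 0.03 to 0.22 in NHD13 leukemic spleen except for array 5 at 0.85. No fit with this gap as a covariate is given for these 2 comparisons.

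The share of members called differed among the complexes. In CA10, 9 of 34 tested complex I genes rose, with 3 of 4 in complex II, 3 of 8 in complex III, 0 of 16 in complex IV and 6 of 17 in complex V. In NHD13 the counts were 23 of 34, 2 of 4, 6 of 8, 5 of 16 and 11 of 17. Complex IV had the lowest median difference in both leukemias, 0.36 in CA10 and 0.24 in NHD13, against 0.51 and 0.78 for complex I and 0.60 and 0.77 for complex III. Complex II had the highest median in CA10 at 0.89, and 0.51 in NHD13. The complex V medians were 0.48 and 0.55. No test of the difference between complexes was made.

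**Figure D2:**
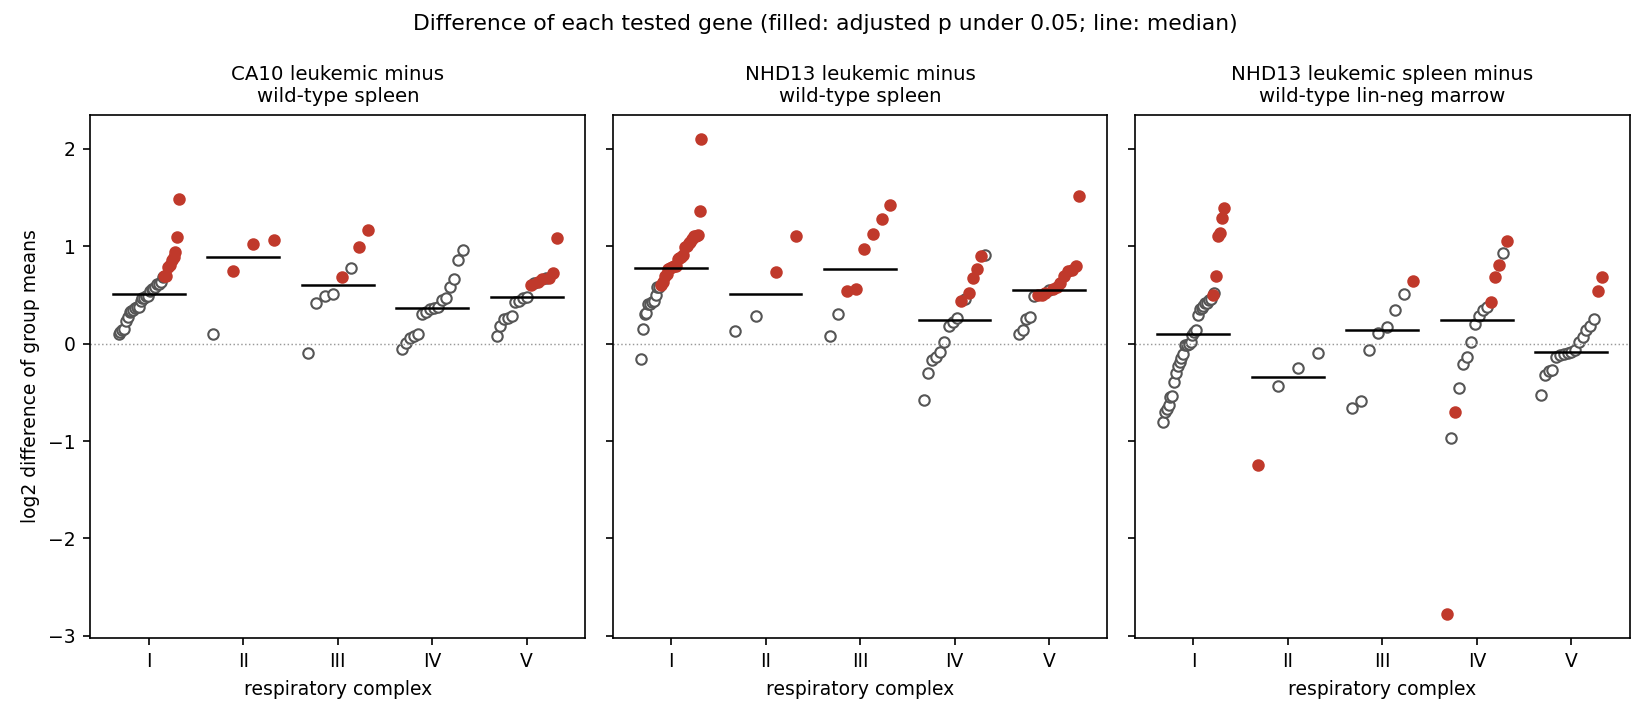
Log2 difference of each tested member by complex in 3 comparisons: CA10 leukemic minus wild-type spleen, NHD13 leukemic minus wild-type spleen, and NHD13 leukemic spleen minus wild-type lineage-negative marrow. Filled points passed an adjusted p of 0.05 in limma and the line marks the median of a complex; the first 2 panels lie mostly above 0 (medians 0.49 and 0.59 over all members) and the third is centred near 0 (median 0.02).

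Ndufb2, an accessory subunit in the membrane arm of complex I, had the largest rise of any member in both leukemias. Its signals were 8.69 and 8.97 in wild-type spleen. They ranged from 10.08 through a median of 10.30 to 10.72 in CA10 leukemic spleen and from 10.68 through 10.87 to 11.31 in NHD13 leukemic spleen. The wild-type arrays lay below every leukemic array, with no overlap. The difference was 1.49 ± 0.27 (SE) in CA10, a 2.81-fold rise (limma, adjusted p = 0.0070), and 2.11 ± 0.27 in NHD13, a 4.30-fold rise (adjusted p = 4.9e-05). The 5 healthy CA10 spleens had 10.12, 8.81, 9.72, 9.47 and 9.12, so the first lay just inside the CA10 leukemic range, the second within the wild-type range and the other 3 in between.

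Complex II oxidises succinate; Sdha and Sdhb form its catalytic part and Sdhc and Sdhd anchor it in the membrane. Sdhd had signals of 9.99 and 9.33 in wild-type spleen, 10.42, 10.75 and 10.98 (lowest, median and highest) in CA10 leukemic spleen and 10.23, 10.86 and 11.19 in NHD13 leukemic spleen. Neither leukemic range met the wild-type values. The rise was 1.07 ± 0.25 in CA10 (limma, adjusted p = 0.018) and 1.10 ± 0.25 in NHD13 (adjusted p = 0.0030). Sdhb, the iron-sulfur subunit, was at 10.29 and 10.11 in wild-type spleen, 10.90, 11.24 and 11.55 in CA10 and 10.74, 10.91 and 11.18 in NHD13. It likewise showed no overlap with wild type, and rose by 1.03 ± 0.17 in CA10 (adjusted p = 0.0062) and 0.74 ± 0.17 in NHD13 (adjusted p = 0.0033).

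The other 2 subunits of complex II behaved differently between the models or did not pass the test. Sdhc was at 8.72 and 9.13 in wild-type spleen, 9.36, 9.63 and 10.07 in CA10 leukemic spleen and 8.93, 9.26 and 9.59 in NHD13 leukemic spleen. Only the CA10 arrays cleared the wild-type values, and only there did Sdhc pass the test, with a rise of 0.75 ± 0.20 (limma, adjusted p = 0.030). Sdha, the flavoprotein that binds succinate, was at 10.48 and 10.63 in wild-type spleen, 10.497, 10.66 and 10.78 in CA10 and 10.497, 10.68 and 10.93 in NHD13. Its ranges overlapped in all 3 groups and it was not called in either leukemia.

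In complex III the largest rise was in Uqcrq, a small subunit of the cytochrome bc1 complex. Its signals were 9.69 and 9.35 in wild-type spleen, 10.32, 10.74 and 10.84 in CA10 leukemic spleen and 10.77, 10.94 and 11.13 in NHD13 leukemic spleen. All leukemic arrays were above both wild-type arrays, by 1.16 ± 0.21 in CA10 (limma, adjusted p = 0.0070) and 1.43 ± 0.21 in NHD13 (adjusted p = 0.00015). In complex V the largest rise was in Atp5g1, 1 of 3 genes that encode the same c subunit of the proton-driven rotor. Atp5g1 was at 9.40 and 9.39 in wild-type spleen, 10.08, 10.57 and 10.82 in CA10 and 10.60, 10.86 and 11.45 in NHD13. It did not overlap with wild type, and rose by 1.09 ± 0.27 (adjusted p = 0.024) and 1.52 ± 0.27 (adjusted p = 0.00066). Of its paralogs, Atp5g3 rose in NHD13 by 0.50 ± 0.13 (adjusted p = 0.0080), and Atp5g2 was not called in either, with differences of 0.44 ± 0.21 in CA10 and 0.55 ± 0.21 in NHD13.

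Complex IV, cytochrome c oxidase, had the lowest median difference. Its tested genes included the tissue-restricted Cox4i2, Cox6a2, Cox6b2, Cox7a1, Cox8b and Cox8c, with mean signals of 5.54 to 8.67 over all arrays. Ndufa4, now placed with complex IV, was counted in complex I by its symbol. No median was taken without the tissue-restricted forms. The 5 members called in NHD13 were Cox5b, Cox8a, Cox7a2, Cox6c and Cox6a1, of which Cox6c was named after its values were seen. Cox5b was at 12.07 and 11.75 in wild-type spleen, 12.64, 12.80 and 13.10 in NHD13 and 12.02, 12.41 and 12.61 in CA10. The NHD13 arrays lay above both wild-type arrays and every CA10 leukemic array, with a rise over wild type of 0.90 ± 0.18 (limma, adjusted p = 0.0014). Cox8a changed by 0.76, Cox7a2 by 0.67, Cox6c by 0.52 and Cox6a1 by 0.44. Cox8a, Cox7a2 and Cox6a1 are the widely used forms of subunits that also have tissue-restricted forms among the members. Cox5b and Cox6c have no paired form among the members. The widely used Cox4i1 differed by 0.37 ± 0.13 in CA10 (adjusted p = 0.072) and 0.26 ± 0.13 in NHD13 (adjusted p = 0.12), and Cox6b1 by 0.32 ± 0.16 and 0.22 ± 0.16, none of which passed. The tissue-restricted Cox4i2, Cox6a2, Cox7a1, Cox8b and Cox8c were not called in either leukemia against wild-type spleen. The low end of the NHD13 comparison was Cox6b2, with -0.58 ± 0.87 and overlapping groups.

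**Figure D3:**
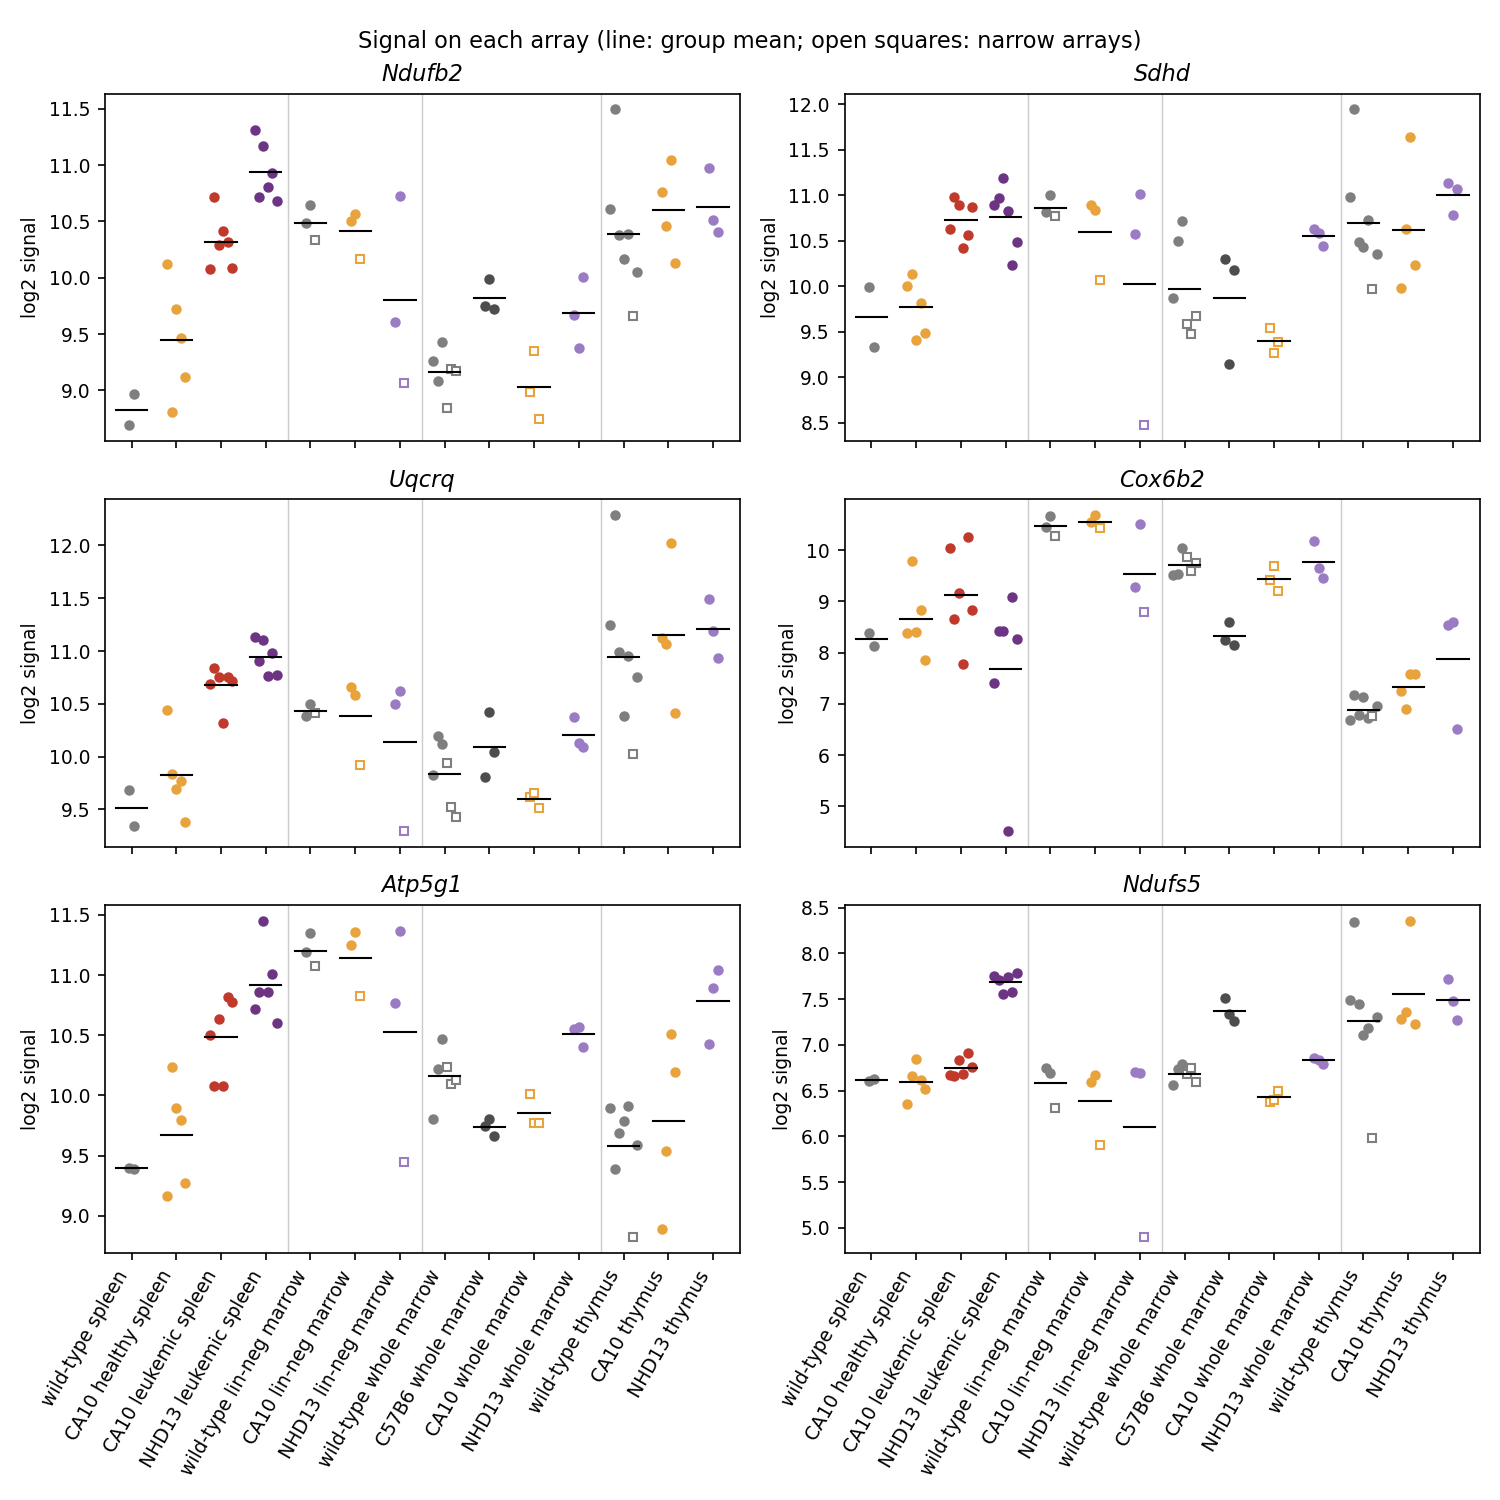
Log2 signal of Ndufb2, Sdhd, Uqcrq, Cox6b2, Atp5g1 and Ndufs5 on every array by group; the line is the group mean and open squares are the 10 arrays with a narrow spread of signals. Ndufb2, Sdhd, Uqcrq and Atp5g1 are higher in all leukemic than in both wild-type spleens, Cox6b2 is highest in lineage-negative marrow, and Ndufs5 is higher in NHD13 than in CA10 leukemic spleen.

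Since members of several complexes rose together, the promoters of the members were read for the sites of factors known to act on respiratory genes. RefSeq promoters (GRCm38.p6, 250 bases before to 50 after the start) were at hand for 66 of the 81 members, as 71 windows. Both strands were searched for NRF1 (GCGC, any base, then TGCGC), ETS factors such as GABP (CCGGAAG) and YY1 (AAGATGGCG). The NRF1 letters were in 22.5% of member windows and 4.60% of all 32851 windows, the ETS letters in 23.9% and 8.86%, and the YY1 letters in 8.45% and 1.40%. NRF1 or ETS letters were in 40.8% of member windows (29 of 71, 95% Wilson interval 30.2 to 52.5%, counting error only) and 12.6% of all. With only the 250 bases before the start the shares were 29.6% and 10.1%. Of the 19 tested members with NRF1 or ETS letters in these 250 bases 6 rose in CA10 and 12 in NHD13. Of the 45 without them there 12 and 28 rose, and some of these 45 may hold the letters in the longer window. The medians were 0.42 with and 0.51 without in CA10, and 0.55 and 0.70 in NHD13.

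3 promoters show the range among members that rose in both leukemias: Ndufb2, the largest riser, held none of the searched letters before its start, Ndufa8 held NRF1 letters, and Sdhd held both NRF1 and ETS letters. Ndufa8, a complex I accessory subunit chosen here after its values were seen, differed by 0.86 in CA10 and 1.10 in NHD13. The 250 bases before the start are given in the gene's direction with the matched letters in capitals: Ndufb2 at chr6:39592315-39592564 (plus strand), Ndufa8 at chr2:36049339-36049588 (minus strand) and Sdhd at chr9:50603850-50604099 (minus strand, where the ETS letters read CTTCCGG). A match is a description of the letters and not a bound site.
Ndufb2: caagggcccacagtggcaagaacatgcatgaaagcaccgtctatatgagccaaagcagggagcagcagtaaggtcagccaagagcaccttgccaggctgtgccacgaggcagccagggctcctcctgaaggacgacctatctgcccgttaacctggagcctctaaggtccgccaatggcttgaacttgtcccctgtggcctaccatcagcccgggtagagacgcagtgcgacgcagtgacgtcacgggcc
Ndufa8: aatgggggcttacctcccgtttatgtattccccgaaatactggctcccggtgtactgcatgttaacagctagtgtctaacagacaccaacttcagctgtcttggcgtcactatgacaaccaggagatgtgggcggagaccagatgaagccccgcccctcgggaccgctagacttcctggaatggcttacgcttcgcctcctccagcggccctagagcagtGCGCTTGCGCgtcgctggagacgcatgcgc
Sdhd: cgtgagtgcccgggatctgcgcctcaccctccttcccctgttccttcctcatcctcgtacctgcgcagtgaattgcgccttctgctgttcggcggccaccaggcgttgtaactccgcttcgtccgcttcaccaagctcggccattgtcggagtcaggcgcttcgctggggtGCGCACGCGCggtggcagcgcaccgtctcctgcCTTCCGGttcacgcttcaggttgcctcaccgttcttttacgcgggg

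Other lists of mitochondrial genes were read in the same 2 comparisons. Of 76 genes of the mitochondrial ribosome, which makes the chain's mitochondrially encoded subunits, 37 rose and 0 fell in CA10 (median 0.69), and 70 rose and 0 fell in NHD13 (median 1.01). These shares and medians were above those of the chain itself. Of 44 assembly factors 9 and 28 rose and 0 fell (medians 0.41 and 0.87), with Uqcc2, a complex III assembly factor, up by 1.17 ± 0.19 in CA10 (limma, adjusted p = 0.0062) and Acad9, a complex I assembly factor, up by 1.84 ± 0.22 in NHD13 (adjusted p = 3.0e-05). Of 17 citric acid cycle genes 3 and 11 rose (medians 0.51 and 0.63), and of 17 other chain genes 4 and 10 rose, a list that also holds the member Atp5md. Among these, Cycs, which encodes cytochrome c, rose by 0.86 ± 0.18 in CA10 (adjusted p = 0.013) and 1.00 ± 0.18 in NHD13 (adjusted p = 0.00082). Of 19 glycolysis genes 4 rose in CA10, and 6 rose and 1 fell in NHD13 (medians 0.88 and 0.47).

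Regulators of mitochondrial gene expression did not rise as a list. In CA10 0 of 20 rose and 1 fell, Nrf1, the factor whose letters were searched above, by 1.05 on the log2 scale (limma, adjusted p = 0.042). In NHD13 4 rose and 1 fell, each named because the counts are small. The 4 were Tfb1m, a mitochondrial transcription factor (1.14 ± 0.24, adjusted p = 0.0017), Mterf4 (1.02 ± 0.18, adjusted p = 0.00066), Gabpa, an ETS factor (0.69 ± 0.17, adjusted p = 0.0052), and Myc (1.71 ± 0.43, adjusted p = 0.0063). Ppargc1b, a coactivator of mitochondrial genes, fell by 1.25 (adjusted p = 0.032). Tfam, which packages mitochondrial DNA, differed by -0.01 and 0.10.

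The cell mixture of the spleens changed with the same groups. B cell markers (9 of 10 listed genes on the array) averaged 11.12 and 11.46 in wild-type spleen, 6.18 to 9.52 in CA10 leukemic and 5.36 to 6.71 in NHD13 leukemic spleen, and 5 and 9 of the 9 fell. T cell markers averaged 8.44 and 8.91 in wild-type spleen, 6.40 to 7.71 in CA10 leukemic and 5.48 to 6.84 in NHD13 leukemic spleen, with 3 and 7 of 7 falling. Stem and progenitor markers averaged 7.51 and 7.49 in wild-type spleen and 8.01 to 9.77 in the leukemic spleens. Neutrophil markers averaged 9.11 and 9.13 in wild-type spleen, 10.26 to 11.92 in CA10 and 7.99 to 12.62 in NHD13 leukemic spleen, with positive differences for 10 of 10 genes in both (medians 1.90 and 1.77), of which 0 and 2 passed. Monocyte and macrophage markers averaged 9.09 and 8.96, 10.01 to 10.54 and 8.14 to 10.27, and 4 and 3 of 10 rose. Erythroid markers averaged 10.42 and 9.84, 5.55 to 10.32 and 8.09 to 10.05, with negative differences for 6 and 5 of 6 genes (medians -1.88 and -0.84), none of which passed. Of 18 mitotic genes 1 rose in CA10 (median 0.57) and 9 in NHD13 (median 1.10). NHD13 leukemic spleen 3 alone gave the low ends of the neutrophil and monocyte ranges, 7.99 and 8.14. The other NHD13 leukemic spleens had 11.26 to 12.62 and 9.33 to 10.27. That array had the highest chain level of its group, 0.34. The part of these mixtures in the rise of the chain was not tested. The 6 CA10 leukemic spleens had B cell means of 7.07, 6.18, 8.77, 9.52, 9.33 and 8.72, in array order. Their chain levels were 0.11, 0.08, 0.23, -0.10, 0.23 and 0.07. Array 2, at 6.18, also had an adipocyte marker mean of 6.85, against 4.72 to 4.79 on the others.

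CA10 leukemic spleen was next compared with spleen of clinically healthy CA10 mice, which carry the same transgene. Of the 79 members 22 rose and 0 fell, where 4.18% of all genes rose and 1.83% fell, and the median was 0.34 against 0.01 over all genes. The calls fell in every complex, with 8 of 34 in complex I, 2 of 4 in complex II, 2 of 8 in complex III, 2 of 16 in complex IV and 8 of 17 in complex V. For 12 members no healthy array reached the leukemic range, against 3.75% of all genes. Sdhd had signals of 10.001, 10.13, 9.41, 9.81 and 9.49 in the healthy spleens, all below the CA10 leukemic minimum of 10.42. It rose by 0.96 ± 0.18 (limma, adjusted p = 0.010). Sdhb, at 10.61, 10.60, 10.21, 10.59 and 10.26 in the healthy spleens, was below the leukemic minimum of 10.90 on all 5, and rose by 0.77 ± 0.13 (adjusted p = 0.0046).

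Uqcrq was at 10.45, 9.83, 9.69, 9.77 and 9.38 in the healthy spleens, so the first array overlapped the leukemic range, and rose by 0.86 ± 0.15 (limma, adjusted p = 0.0076). Ndufb2 rose by 0.87 ± 0.20 (adjusted p = 0.020). In complex IV the called members were Cox8a (0.58) and Cox4i1 (0.40). The first healthy CA10 spleen had the highest chain level of that group, 0.04, and its B cell mean was 8.93 and the third array's 8.71, against 10.82 to 11.57 on the other 3. Neutrophil markers averaged 11.57 and 11.83 on arrays 1 and 3, against 8.11 to 10.12 on the other 3. For stem and progenitor markers these means were 9.16 and 9.48, against 7.70 to 7.79. Arrays 1 and 3 thus lay within the CA10 leukemic ranges of 10.26 to 11.92 and 8.54 to 9.59. The chain level of array 3 was -0.30, and the part of these mixtures in the calls was not tested. The first array also had the second largest Gapdh gap of all arrays, a signal 2.09 lower at the 5' than at the 3' probe set, against 0.14 to 0.58 on the other healthy spleens; without it 28 members were called, and with the gap as a covariate 21. Exocrine pancreas markers stood apart on healthy spleen 4 (mean 12.72) and leukemic spleen 3 (10.85), against 5.54 to 5.89 on the other spleens of these groups; without the former 19 members were called. The count moved with single arrays: 5 members were called without healthy spleen 5, 12 without leukemic spleen 3 and 14 without leukemic spleen 6. The model of all arrays left 5 and quantile normalization 13. Against wild-type spleen the healthy CA10 spleens showed 0 members called in limma, with 4 higher and 0 lower at an unadjusted p under 0.05, a median of 0.16 and 65 of 79 positive; 0 of all genes were called. These comparisons share the healthy or wild-type arrays with those above and are not independent of them.

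The 2 leukemias were then compared with each other. In CA10 relative to NHD13 leukemic spleen 2 members were higher and 13 lower, where 24.7% of all genes differed and 11.7% were higher. In the lower direction the 13 of 79 members stand beside 1991 of 15314 genes. The share of members that were lower was thus near that of all genes, and the share that were higher was below it. The median was -0.11 against -0.02. Under quantile normalization the split was 3 higher and 9 lower, and the model of all arrays left 2 higher and 1 lower. Ndufs5, a complex I accessory subunit, had the largest difference among the called members; that of Cox6b2 was larger, 1.44 ± 0.61, but was not called (limma, adjusted p = 0.094). Its signals were 6.66, 6.72 and 6.92 in CA10 leukemic spleen and 7.56, 7.72 and 7.78 in NHD13 leukemic spleen, with 6.61 and 6.63 in wild-type spleen. The CA10 arrays lay near wild type and well below every NHD13 array, with a difference of -0.94 ± 0.09 (limma, adjusted p = 1.7e-06).

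The Ndufs5 signal also differed between the wild-type marrows. It was 7.51, 7.34 and 7.26 in the marrows labelled C57B6 and 6.57 to 6.79 in the other 6, and 6.86, 6.84 and 6.79 in NHD13 whole marrow. With the difference between these wild-type groups added to the comparison, Ndufs5 differed between the leukemias by -0.26 (limma, adjusted p = 0.84), and 1 member was called in all. With it subtracted from the NHD13 rise over wild-type spleen, Ndufs5 changed by 0.40 (adjusted p = 0.67) in place of 1.07 ± 0.13 (adjusted p = 2.9e-05), and 5 members were called with a median of 0.79. The strain of the leukemic mice is not in the labels, so its part in these differences was not tested.

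The members higher in CA10 were Sdhc, by 0.46 ± 0.14 (limma, adjusted p = 0.024), which turned to -0.15 with the C57B6 difference added, and Cox7a2l, by 0.40 ± 0.13 (adjusted p = 0.028). Cox7a2l is a Cox7a-related protein that joins complexes III and IV into supercomplexes, and its ranges in the 2 leukemias did not overlap. The other 12 members lower in CA10 came from complex I (Ndufb2, Ndufs7, Ndufv3, Ndufa3, Ndufs3 and Ndufs4), complex III (Uqcr11 and Uqcrb), complex IV (Cox5b, Cox8a and Cox6a1) and complex V (Atp5g3), with differences from -0.62 to -0.31. Of 76 mitochondrial ribosome genes 0 were higher and 23 lower in CA10 (median -0.33), and of 44 assembly factors 0 and 12 (median -0.26).

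Leukemic spleen was also set against wild-type lineage-negative marrow, which is depleted of mature blood cells. The broad rise seen against spleen was not seen against this control. In CA10 10 members were higher and 8 lower, where 18.2% of all genes were higher and 13.1% lower, with a median of -0.06 against -0.08. In NHD13 13 were higher and 3 lower, where 20.9% and 15.6% of all genes were, with a median of 0.02 against -0.01. The member shares were near or below these backgrounds. Under quantile normalization the splits were 9 and 14 in CA10 and 9 and 12 in NHD13, so the balance of higher and lower members turned in both. Fitted on only the groups compared, they were 12 and 20 in CA10 and 17 and 12 in NHD13. The shares of all genes above belong to the main model. Those under quantile normalization and under this fit are not given, so these splits cannot be set against a background. With the C57B6 difference subtracted, 1 member was called in NHD13. The CA10 count was 7, 10 and 5 without wild-type arrays 1, 2 and 3 and 9 without leukemic spleen 4, and the NHD13 count 10 and 8 without wild-type arrays 1 and 3.

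Single members differed in both directions from lineage-negative marrow. Ndufa4, a subunit first assigned to complex I and now placed with complex IV, averaged 10.28 ± 0.36 (SD, n = 3) in wild-type lineage-negative marrow, 11.37 ± 0.27 (n = 6) in CA10 leukemic spleen and 11.67 ± 0.31 (n = 6) in NHD13 leukemic spleen. Its difference was 1.09 ± 0.34 (SE; limma, adjusted p = 0.011) in CA10 and 1.39 ± 0.34 (adjusted p = 0.0013) in NHD13, and the ranges did not overlap. Cox6b2, the testis form of a complex IV subunit, was at 10.46, 10.66 and 10.27 in wild-type lineage-negative marrow, 7.77, 9.004 and 10.27 in CA10 and 7.41, 8.43, 8.42, 4.52, 9.08 and 8.26 in NHD13 leukemic spleen. All leukemic arrays lay below the marrow arrays, the highest CA10 array by a small margin (10.265 against 10.273). The difference was -1.34 ± 0.52 (adjusted p = 0.046) in CA10 and -2.78 ± 0.52 (adjusted p = 4.9e-05) in NHD13. Sdhc was at 10.36, 10.64 and 10.37 in lineage-negative marrow, above all leukemic arrays, and in NHD13 the difference was -1.24 ± 0.36 (adjusted p = 0.0059). Sdhd, called against spleen, was at 10.81, 10.998 and 10.78 in lineage-negative marrow, within the NHD13 range and at the top of the CA10 range.

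The other lists also differed between the controls. Of 76 mitochondrial ribosome genes 1 was higher and 27 lower in CA10 than in lineage-negative marrow (median -0.53), and 1 and 7 in NHD13 (median -0.14). Of 17 citric acid cycle genes 0 were higher and 5 lower in CA10 and 0 and 1 in NHD13, while of 19 glycolysis genes 8 and 9 were higher. In both leukemias 10 of 10 monocyte markers and 8 of 10 neutrophil markers were higher. The neutrophil markers averaged 6.68 to 8.05 in lineage-negative marrow, 10.26 to 11.92 in CA10 and 7.99 to 12.62 in NHD13 leukemic spleen. Of 6 erythroid markers tested 2 were higher and 3 lower in CA10, and 3 and 2 in NHD13. Klf1, Rhag and Ermap averaged 12.52, 11.34 and 11.97 in lineage-negative marrow and 9.82, 8.79 and 8.81 in CA10 leukemic spleen. Alas2, Slc4a1 and Epb42 went the other way, with 7.23, 8.29 and 6.27 against 10.08, 10.81 and 6.95. The part of these markers in these results was not tested.

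Lineage-negative marrow itself had more of these transcripts than whole marrow of wild-type mice, with 23 members higher and 0 lower (14.9% and 11.3% of all genes; median 0.40 against 0.05). By complex the counts were 13 of 34 in complex I, 3 of 4 in complex II, 1 of 8 in complex III, 0 of 16 in complex IV and 6 of 17 in complex V. Ndufb2 was at 10.48, 10.65 and 10.33 in lineage-negative and 8.84 to 9.43 in whole marrow. These ranges were far apart, with a difference of 1.32 ± 0.27 (limma, adjusted p = 0.00020). The mitochondrial ribosome list had 56 of 76 genes higher (median 1.03), and the neutrophil list a median of -6.35. Without wild-type lineage-negative array 2 the count was 9, and without array 1 it was 12. With the replicate number as a block it was 12, and against only the wide whole marrows 1 to 3 it was 11.

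Against whole marrow, 26 members were higher and 1 lower in CA10 leukemic spleen (21.2% and 11.2% of all genes; median 0.37 against 0.06), and 42 higher and 3 lower in NHD13 leukemic spleen (29.4% and 19.6%; median 0.49 against 0.11). Ndufb2 was higher by 1.15 ± 0.22 and 1.77 ± 0.22 (limma, adjusted p = 3.2e-08 in NHD13). In CA10 the largest difference was that of Cox7c, 1.35, a complex IV subunit whose signal had an SD of 0.92 in the 6 wild-type marrows. The lower members were Cox8c in CA10 (-0.49), and Cox6b2 (-2.03), Cox6a2 (-0.97) and Cox8c (-0.60) in NHD13. Wild-type marrows 4 to 6 were narrow arrays and the spleens wide: with only the wide marrows 1 to 3 as the control 6 members were called in CA10 and 16 in NHD13, and with the array set as a covariate 7 and 18. With the C57B6 marrows as the control 14 and 24 were called, and Cox8c then differed by 0.03 in CA10.

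**Figure D4:**
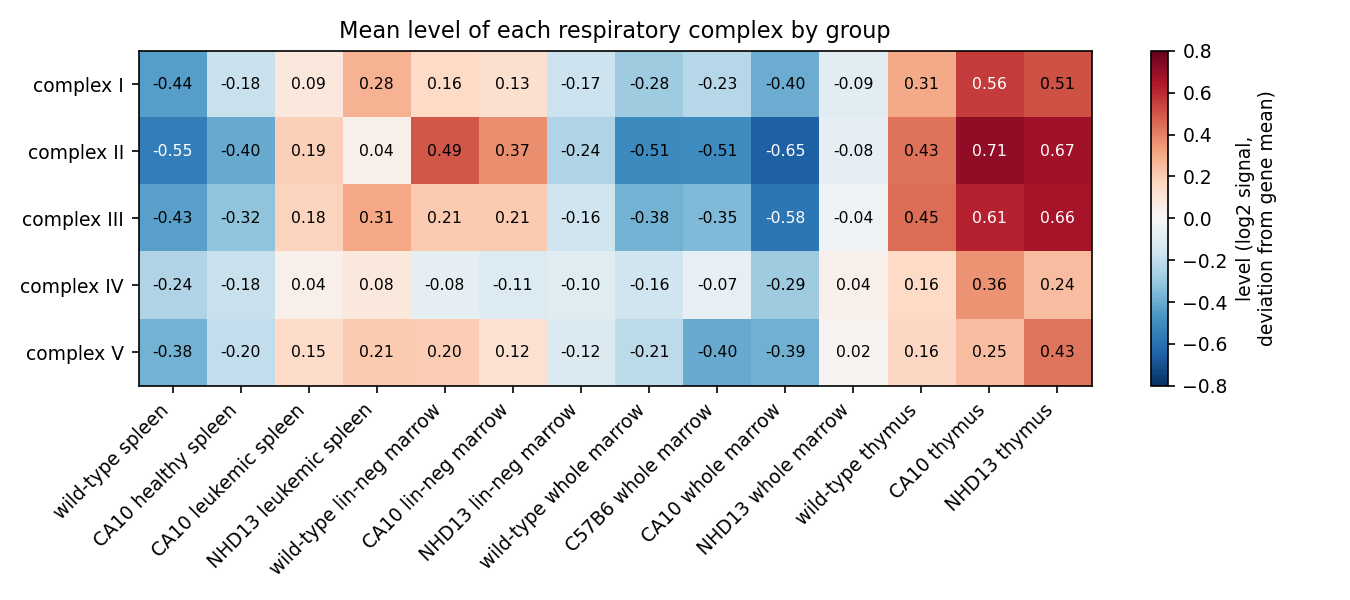
Mean level of each complex in the 14 groups, as the median log2 deviation of its genes on an array averaged over the arrays of a group. Wild-type spleen and CA10 whole marrow are low in all 5 complexes (-0.24 to -0.55 and -0.29 to -0.65), the CA10 and NHD13 thymuses high (0.25 to 0.71 and 0.24 to 0.67). The CA10 whole marrows are all narrow arrays, and the CA10 thymus mean includes array 3, whose chain level stood apart.

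Healthy transgenic tissues were compared with the wild-type tissue of the same kind, which asks what the transgene does before leukemia. In none of the 6 marrow and thymus comparisons was a member called in limma with the wild-type groups named above; other control marrows gave calls, as described with the whole marrows. In CA10 lineage-negative marrow 0 members were called, with 0 higher and 0 lower at an unadjusted p under 0.05, a median of -0.05, and 0 of all genes called. In NHD13 lineage-negative marrow 0 members were called, with 0 and 1 at an unadjusted p under 0.05, a median of -0.32, and 0.0588% of all genes called. The third NHD13 array, a narrow array with a chain level of -0.89, stood apart from the first and second at 0.09 and 0.27, and its Gapdh signal was 2.95 lower at the 5' than at the 3' probe set, the largest such gap of all arrays. Over the wide arrays only, chosen after seeing the data, the median was -0.04. With the Gapdh gap as a covariate it was 0.04.

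In CA10 whole marrow 0 members were called, with 1 higher and 4 lower at an unadjusted p under 0.05 and a median of -0.14; 0 of all genes were called. All 3 CA10 marrows were narrow arrays: against the wide wild-type marrows 1 to 3 alone, 4 members were higher and 22 lower, but 56.6% of all genes were then called, and the replicate block, with 3 higher and 18 lower, called 53.8%. In NHD13 whole marrow 0 members were called, with 16 higher and 1 lower at an unadjusted p under 0.05, a median of 0.23 and 72 positive; 1.18% of all genes were called. Against wild-type marrows 4 to 6 alone, which are narrow arrays, 31 were higher and 2 lower, with 56.5% of all genes called. In these settings the array set and the genotype cannot be told apart. With the C57B6 marrows as the control, 4 members were higher and 15 lower in CA10 marrow, with 42.1% of all genes called, and 13 higher and 2 lower in NHD13 marrow, with 16.1%.

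In thymus 0 members were called in CA10, with 0 and 0 at an unadjusted p under 0.05, a median of 0.20 and 0 of all genes called. In NHD13 thymus 0 members were called, with 4 and 0 at an unadjusted p under 0.05, a median of 0.21 and 0.764% of all genes called. Without the array labelled wild-type thymus 2 alone, 0 members were called in CA10 (median 0.35) and 1 in NHD13 (median 0.40). Wild-type thymuses 2 and 6 and CA10 thymus 3 were chosen after seeing the data because their chain level, made of the members, stood apart. Without them 5 members were called in NHD13 thymus. Quantile normalization called 1 and the model of all arrays 2. The shares of all genes called in these settings are not given, so these counts have no background beside them. The CA10 thymus had the highest group mean for 30 members and the NHD13 thymus for 25, while the lowest was most often CA10 whole marrow (21), wild-type spleen (20), C57B6 marrow (15) or NHD13 lineage-negative marrow (13). These means include CA10 thymus 3 (chain level 1.07) and NHD13 lineage-negative array 3 (-0.89), which stood apart in their groups. The CA10 whole marrows were all narrow arrays.

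The muscle and brown-fat forms of complex IV varied most over the arrays. Cox8b and Cox7a1 had the widest ranges of group means, 5.49 and 5.19, followed by Cox6b2 at 3.67 and Cox7c at 2.18. The narrowest ranges were those of Ndufb7, 0.36, and Atp5pb, 0.44, with Ndufb4 at 0.53, a gene under the filter on low signal, and Atp5h at 0.57. The median range over members was 1.21. Cox7a1, the heart and muscle form that brown fat also uses, was at 9.76, 12.32, 9.57, 4.74, 9.26, 6.79 and 8.52 in the 7 wild-type thymuses, 9.86, 9.98, 11.86 and 4.42 in CA10 and 10.996, 9.79 and 6.16 in NHD13 thymus. Each thymus group thus held arrays near the top and near the bottom of the range, and the groups overlapped.

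Brown-fat markers moved with these forms array by array. Ucp1, the uncoupling protein of brown fat, was at 11.19, 13.13, 11.12, 4.21, 10.39, 8.76 and 9.73 in the wild-type thymuses, 10.16, 10.39, 13.01 and 4.71 in CA10 and 11.77, 10.77 and 6.14 in NHD13 thymus. The thymuses at the top and at the bottom of Cox7a1, wild-type 2 and 4, CA10 3 and 4 and NHD13 1 and 3, were also those of Ucp1 within their groups. The whole adipocyte list, with 8 of 10 genes on the array, averaged 5.05 to 11.97 in wild-type, 6.47 to 11.72 in CA10 and 6.73 to 10.69 in NHD13 thymus. The part of adipose tissue in the thymus values of the chain was not tested. Cox8b had 11.40, 13.47, 10.90, 5.91, 10.92, 9.83 and 10.54 in the wild-type thymuses, with the same arrays at its top and bottom.

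In the leukemic spleens CA10 array 2 stood apart in the same genes, and NHD13 array 3 in Cox7a1 (5.92). The brown-fat markers did not stand apart with it on NHD13 array 3. Ucp1 was 4.01 there, within the range of its group (3.82 to 4.27), and the adipocyte mean was 5.06, against 4.65 to 4.96 on the other NHD13 leukemic spleens. CA10 leukemic spleen 2 had 6.88 for Cox7a1, where the other 5 had 3.97 to 4.72, and 8.68 for Cox8b, where they had 5.08 to 5.96. Ucp1 was 7.95 there against 4.21 to 4.42, with Cidea at 8.78, Adipoq at 8.33 and Fabp4 at 10.71. Its adipocyte mean was 6.85 against 4.72 to 4.79. Cox6a2, the muscle form of another complex IV subunit, was highest among thymuses in CA10 thymus 3 at 10.34, NHD13 thymus 2 at 9.64 and wild-type thymus 2 at 9.08, where Ckmt2, the muscle mitochondrial creatine kinase, was at 9.85, 7.52 and 7.61. Ckmt2 is 1 gene of the muscle list (12 genes), and the list was not uniform. On CA10 thymus 3, Acta1, Ckm, Myl1 and Atp2a1 were also the highest of their group. Mylpf was the lowest there, at 5.97, and the other listed muscle genes lay within the range of the group's other arrays. The muscle list averaged 4.74 to 6.63 over the thymuses, and its part was not tested.
The 250 bases before the start of these 2 brown-fat and muscle forms hold none of the NRF1, ETS or YY1 letters: Cox7a1 at chr7:30183921-30184170 (plus strand) and Cox8b at chr7:140900447-140900696 (minus strand), RefSeq GRCm38.p6. They are shown beside the widely expressed members above, of which Ndufb2 also holds none. NRF1 or ETS letters were in 21 of the 71 member windows of these 250 bases, so their absence is not particular to these forms.
Cox7a1: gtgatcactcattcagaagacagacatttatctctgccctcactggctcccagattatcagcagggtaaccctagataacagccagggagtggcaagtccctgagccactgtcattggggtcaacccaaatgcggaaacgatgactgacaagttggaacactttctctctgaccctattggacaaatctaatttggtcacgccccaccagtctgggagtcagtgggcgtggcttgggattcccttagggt
Cox8b: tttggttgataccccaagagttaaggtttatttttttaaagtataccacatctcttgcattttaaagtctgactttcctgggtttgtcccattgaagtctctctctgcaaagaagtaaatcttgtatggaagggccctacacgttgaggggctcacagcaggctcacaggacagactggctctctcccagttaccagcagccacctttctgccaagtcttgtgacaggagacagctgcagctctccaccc

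**Figure D5:**
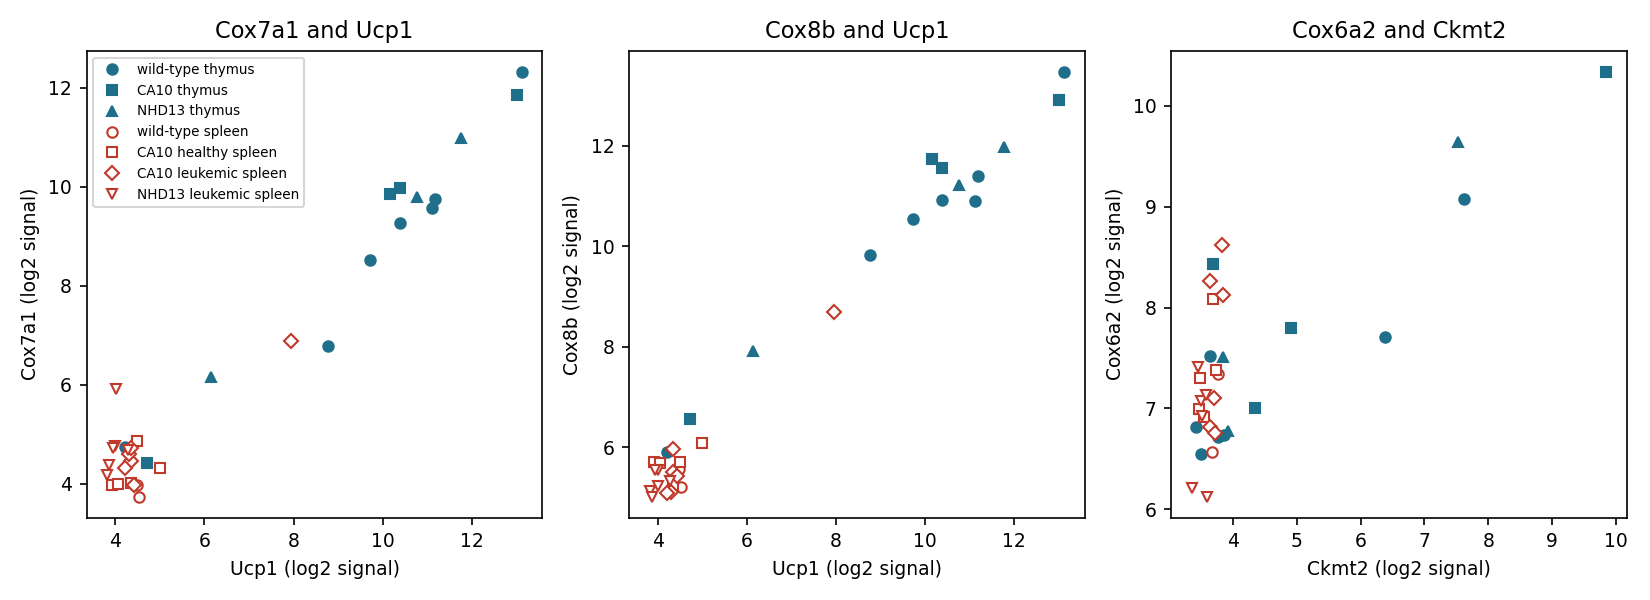
Log2 signals of Cox7a1 and Cox8b against Ucp1, and of Cox6a2 against Ckmt2, on the thymus and spleen arrays. Cox7a1 and Cox8b are highest on the thymus arrays where Ucp1 is highest (12.32 and 13.47 with Ucp1 at 13.13 on wild-type thymus 2), and CA10 leukemic spleen 2 lies apart from the other spleens.

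Most members shared 1 pattern over the groups. The correlation of a member with the mean of the others over the 14 group means had a median of 0.78, and exceeded 0.7 for 53 of 81. It was below 0 for 5: Cox4i2, Ndufb4, Cox8c, Cox6b2 and Ndufa4l2. These points share arrays, depth of signal and the array sets, so the values are a description. The 10 other genes most like the mean of the members over the 14 groups were Acaa2 (r = 0.97), Etfa (0.961), Suclg1 (0.961), Amz2 (0.957), Sucla2 (0.953), Etfdh (0.949), Btf3l4, Ptov1, Pcca and Decr1 (0.941). Acaa2 and Decr1 are enzymes of mitochondrial fatty acid oxidation, Etfa and Etfdh pass its electrons to the chain, and Suclg1 and Sucla2 are subunits of the citric acid cycle's succinyl-CoA ligase.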

How the data were processed

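RNA of spleen, thymus and bone marrow was extracted with Trizol and labelled for hybridisation, per the labels' protocols. The deposited values were log2 signals; the submitters' processing notes name RMA as the method the authors used. They ran from 2.58 to 14.65 over 44943 probe sets, with array medians from 5.44 to 5.85. An aligner and genome build do not apply to arrays. The number of arrays limits the precision.

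Probe sets that name 1 gene in the platform annotation (34842; 64 controls, 931 with several genes and 9106 with none were left out) were reduced to the set with the highest mean per gene, which gave 18165 genes. The 15314 genes above the 40th percentile of an array on at least 3 arrays were tested in limma 3.58.1 (R 4.3.3), with group means only, 1 model per tissue, and 1 model of all 57 arrays for comparisons across tissues. P-values were adjusted over all genes tested (Benjamini-Hochberg, threshold 0.05). The errors beside differences are standard errors. The models were tested on simulated data.

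Named members were those with the largest called rise or fall per complex and comparison, the Sdh genes, members with a paralog, and the 4 widest and 4 narrowest ranges of group means; from other lists, at most 2 genes per comparison, except where stated. Members and lists were chosen with earlier results of these data known. Of the comparisons with 3 or more pairs of same-numbered arrays, every pair deviated together in the lineage-negative ones (3 pairs each, correlations of 0.200 to 0.695 for CA10 and 0.207 to 0.745 for NHD13); the 2 pairs of CA10 leukemic and wild-type spleen had 0.121 and 0.207, too few to decide; the labels do not say what the numbers mark. Alternatives were other filters, probe-set means, quantile normalization, other models, a block on the replicate number, leaving out single arrays, and other wild-type marrows as control.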

Additional observations from a re-analysis of the deposited data

Results flagged for a closer look

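Within groups of 4 to 10 arrays, the gap of the highest or lowest array to its nearest neighbour was read for the 31 named members and the chain level. Of 192 such group values 16 were above Dixon's critical value, where chance gives about 1 in 20. In leukemic spleen, CA10 array 2 stood above the others for Cox7a1 (6.8798) and Cox8b (8.6837), and CA10 array 4 below for Uqcrq (10.316). Among NHD13 leukemic spleens, array 5 stood above for Cox6a1 (13.476) and Ndufb7 (11.7882), array 3 above for Cox7a1 (5.9191), and array 4 below for Cox6b2 (4.5203). In healthy CA10 spleen, array 5 was below for Atp5g3 (11.7751).

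In thymus, CA10 array 3 stood apart for Cox7a2l (10.7274), Ndufs5 (8.3578) and Sdhc (11.7771), and CA10 array 4 for Ndufb7 (10.8224). Wild-type thymus 6, a narrow array, was below for Atp5g3 (11.5766) and Atp5h (12.0269), and wild-type thymus 2 above for Sdha (12.4929). In wild-type whole marrow, array 5 was above for Ndufb4 (4.9478), a gene under the filter on low signal.

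The effect of the NHD13 transgene differed between lineage-negative marrow, whole marrow and thymus for Atp5g2 (limma F test, adjusted p = 0.0111525) and Atp5g1 (adjusted p = 0.0367118), 2 of the 131 genes that passed. Atp5g1 averaged 10.53 in NHD13 and 11.20 in wild-type lineage-negative marrow, 10.51 and 10.16 in whole marrow, and 10.79 and 9.58 in thymus. Atp5g2 averaged 10.47 and 11.51 in lineage-negative marrow, 10.81 and 10.70 in whole marrow, and 11.93 and 10.96 in thymus. Both genes were thus lower than wild type in NHD13 lineage-negative marrow and higher in the other tissues. The NHD13 lineage-negative group holds the third array with the wide Gapdh gap, whose part in this was not tested.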

How the results depend on the processing

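The counts below are members called of those tested. The share of all genes called is given above for only some of these settings, so the other counts have no background beside them. Quantile normalization gave 8 and 27 for CA10 and NHD13 leukemic against wild-type spleen, 13 for CA10 leukemic against healthy spleen, 1 for NHD13 thymus and 27 for NHD13 leukemic spleen against whole marrow. The model of all arrays gave 4, 22 and 5 for the first 3 of these, 3 between the leukemias and 2 for NHD13 thymus. A fit of only the 2 groups compared gave 32 and 29 against lineage-negative marrow and 41 for CA10 leukemic spleen against whole marrow.

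With the C57B6 difference subtracted or added, 5 were called in NHD13 leukemic against wild-type spleen, 1 between the leukemias and 1 in NHD13 leukemic spleen against lineage-negative marrow; Sdhc then differed by -0.15 between the leukemias, a reversed sign. With the C57B6 marrows as control 19 were called in CA10 marrow, 15 in NHD13 marrow, and 14 and 24 in the leukemic spleens, where Cox8c (0.030 in CA10) and Cox6a1 (-0.057 in NHD13) reversed. With wild-type marrows 1 to 3 as control 26 were called in CA10 marrow, 6 and 16 in the leukemic spleens and 11 in lineage-negative marrow; marrows 4 to 6 gave 33 in NHD13 marrow. The array set as a covariate gave 7 and 18 in the leukemic spleens against whole marrow. Without the 3 thymuses that stood apart, chosen after seeing the data, 5 were called in NHD13 thymus. The causes of these shifts were not tested.

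The replicate block gave 21 in CA10 marrow and 12 for lineage-negative against whole marrow; it left 0 called in the paired lineage-negative comparisons and kept the other counts within 1.5 times. Leaving out single arrays gave 0 to 23 and 17 to 48 against wild-type spleen, 5 to 28 against healthy CA10 spleen, 10 to 15 between the leukemias, 0 to 1 in NHD13 thymus, 5 to 14 and 8 to 16 against lineage-negative marrow, 20 to 29 and 33 to 44 against whole marrow and 9 to 24 for lineage-negative against whole marrow. Of 1548 values of named members under the alternatives, 1217 kept their side of the threshold, 328 lost it and 3 reversed.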
